A study of Mus musculus with 12 samples.

Results

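The genes described here were 32 genes of glycolysis, lactate handling and the hypoxia response in the mouse line IEC4.1, which the labels give as intestinal epithelium. They were chosen by name: each of 32 gene symbols from a list of glucose transporters, glycolytic enzymes, lactate dehydrogenases and transporters, pyruvate dehydrogenase genes and hypoxia-linked genes was looked up among the 15002 genes of the tables. All 32 were listed, and 32 of 32 passed the filter on low counts that 11900 of the 15002 genes passed.

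RNA was sequenced from 12 libraries in 4 groups of 3. Transfection at 120 nM for 24 h delivered either scrambled siRNA (siR_Ctrl) or 3 pooled siRNAs that target the long noncoding RNA Nostrill (siR_Nostrill). Cells of either kind were left without interferon-γ (IFN-γ, a cytokine of T cells and natural killer cells) or were given it at 1 ng/ml, for 4 h by the methods of the study, whereas the labels give 24 h for every library. All groups were grown from a single cell line and all had been transfected, so that no untransfected cells were compared, and Nostrill was not analysed here, since all listed genes were mRNAs. The labelled cell type went against its markers: of 11 intestinal epithelial markers, 6 were listed, 5 of these (Krt8, Krt18, Vil1, Cdx2 and Elf3) were under 1 TPM, a level scaled for transcript length and library total, in every library, and Krt19 ranged from 1.41 to 3.75 TPM. Of 6 fibroblast markers, 5 reached 1 TPM or more, with Col1a1 between 221 and 552 TPM. The summed fibroblast markers were at 599 to 1146 TPM in siR_Ctrl cells, 466 to 919 with IFN-γ, 540 to 860 in siR_Nostrill cells and 610 to 762 with siR_Nostrill and IFN-γ. The summed epithelial markers lay between 1.95 and 4.18 TPM over the 12 libraries, the leukocyte markers between 1.44 and 3.63 TPM and the endothelial markers between 0.03 and 0.28 TPM. Between 17824306 and 19093204 reads fell on genes per library. Libraries of the same group differed by transcript length. In each library, the deviation of each gene from its own mean in that library's group was correlated with length. Spearman rho was between 0.193 and 0.782 in absolute size, across genes, which are not independent replicates. Results below are therefore given also with this length trend removed where it changed a call.

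Glycolysis splits glucose into pyruvate in the cytosol and yields ATP without oxygen. Pyruvate is then either oxidised in mitochondria, through pyruvate dehydrogenase, or reduced to lactate, which leaves the cell through monocarboxylate transporters. When oxygen is low, hypoxia-inducible factor 1 (HIF-1), made of the Hif1a product and its partner Arnt, binds DNA at a short core motif and raises glucose transporters, glycolytic enzymes, Ldha, Pdk1, Vegfa and Bnip3, and interferon and other inflammatory signals can also raise HIF-1 and aerobic glycolysis in immune cells.

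The letters ACGTG, the only form of the core HIF-1 motif that was searched, stood in the promoter windows of most of these genes. The windows ran from 250 bases before to 50 bases after a listed start and came from RefSeq on GRCm38.p6. With both strands searched, so that CACGT counts as a match and the palindrome CACGTG counts on both strands, 25 of 48 windows held the motif, belonging to 21 of the 32 genes. Of all 32851 RefSeq windows, 19.6% held it, and among all 27025 genes 21.8% did. These shares cover all RefSeq genes, whether or not they were expressed in these cells. No share was taken among the 11900 genes that passed the filter on low counts, as all 32 did, so the background is not matched for expression. The motif overlaps the E-box CACGTG, which other factors bind. A match says only that the letters are present. The windows of Hk2, Slc2a1 and Hif1a, which rose with IFN-γ, and of Ldha, which did not pass the test, are printed here in lower case from 5′ to 3′, with ACGTG and CACGT in capitals. They lie at chr6:82774405-82774704 on the minus strand (Hk2), chr4:119108495-119108794 on the plus strand (Slc2a1), chr12:73907617-73907916 on the plus strand (Hif1a) and chr7:46845554-46845853 on the plus strand (Ldha, the one of its 2 windows that held the motif).
Hk2: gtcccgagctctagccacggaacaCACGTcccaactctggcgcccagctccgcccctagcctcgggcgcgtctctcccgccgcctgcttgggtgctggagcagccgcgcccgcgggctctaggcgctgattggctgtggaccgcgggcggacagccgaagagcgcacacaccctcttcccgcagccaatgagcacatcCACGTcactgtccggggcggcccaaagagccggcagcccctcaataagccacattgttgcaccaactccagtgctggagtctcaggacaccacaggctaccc
Slc2a1: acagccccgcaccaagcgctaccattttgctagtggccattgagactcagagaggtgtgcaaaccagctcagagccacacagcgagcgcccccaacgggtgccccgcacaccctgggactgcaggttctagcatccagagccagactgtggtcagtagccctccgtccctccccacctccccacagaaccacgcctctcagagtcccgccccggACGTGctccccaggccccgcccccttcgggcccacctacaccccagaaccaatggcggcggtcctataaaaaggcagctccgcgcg
Hif1a: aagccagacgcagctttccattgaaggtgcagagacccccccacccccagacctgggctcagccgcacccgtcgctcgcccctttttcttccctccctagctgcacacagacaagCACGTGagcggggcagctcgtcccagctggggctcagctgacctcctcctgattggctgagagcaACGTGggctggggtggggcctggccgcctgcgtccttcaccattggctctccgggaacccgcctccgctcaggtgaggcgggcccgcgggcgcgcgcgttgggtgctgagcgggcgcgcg
Ldha: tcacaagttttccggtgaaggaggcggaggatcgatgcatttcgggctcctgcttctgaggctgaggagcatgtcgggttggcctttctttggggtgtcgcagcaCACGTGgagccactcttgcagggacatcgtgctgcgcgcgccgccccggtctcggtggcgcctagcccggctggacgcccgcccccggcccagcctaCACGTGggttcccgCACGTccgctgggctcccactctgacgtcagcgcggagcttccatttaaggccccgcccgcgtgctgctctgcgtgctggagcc
Hk2 held 2 matches, Slc2a1 1, Hif1a 3 and Ldha 5. Among windows not printed, those of Pfkm, which fell with IFN-γ, held 3 matches in 1 window and 1 in another. Hk1 held 2 in 1 window, Pdk3 held 1, and Pfkp, which was called higher in siR_Ctrl cells, held 0. Whether the motif went with the response to IFN-γ was not tested.

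From aldolase to lactate dehydrogenase, 1 gene for each step was among the more abundant mRNAs of these cells, whereas Aldoc, Eno2 and Ldhb were far lower. In siR_Ctrl cells, on the TPM scale, which is per transcript length, Gapdh was at 7465 ± 332 TPM (SD, n = 3) and ranked 5 among all listed genes. Gapdh oxidises glyceraldehyde 3-phosphate and also served as the reference gene of the qRT-PCR assays of the study. Pkm, the pyruvate kinase that makes pyruvate and ATP, followed at 5166 ± 337 TPM (n = 3), Eno1, an enolase, at 4209 ± 111 TPM, Pgk1, phosphoglycerate kinase, at 3757 ± 263 TPM, and Ldha, the lactate dehydrogenase subunit that favours lactate formation, at 3459 ± 95.8 TPM. Pgam1, phosphoglycerate mutase, was at 2454 ± 244 TPM, Tpi1, triose phosphate isomerase, at 2180 ± 75.5 TPM and Aldoa, an aldolase, at 1963 ± 86.1 TPM. All 8 of these were above every other gene of the list, of which the next was Gpi1, glucose phosphate isomerase, at 446 ± 17.5 TPM. The glucose transporter gene Slc2a1 was at 262 ± 50.8 TPM, Hk1 at 152 ± 35.1 TPM and Hk2 at 24.2 ± 9.42 TPM. At the bottom stood Pfkfb2, which sets the level of fructose 2,6-bisphosphate, at 2.80 ± 1.39 TPM and Ldhb, the other lactate dehydrogenase subunit, at 2.24 ± 0.546 TPM. Ldhb made up between 0.0481% and 0.0874% of the summed Ldha and Ldhb TPM in the 12 libraries. The 32 genes together took between 2.90% and 3.78% of the TPM of a library. Some counts of Gpi1, Gapdh and Eno1 were fractional (in 9, 11 and 11 libraries), as when reads are shared with other sequences, so their levels are less certain.

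**Figure D1:**
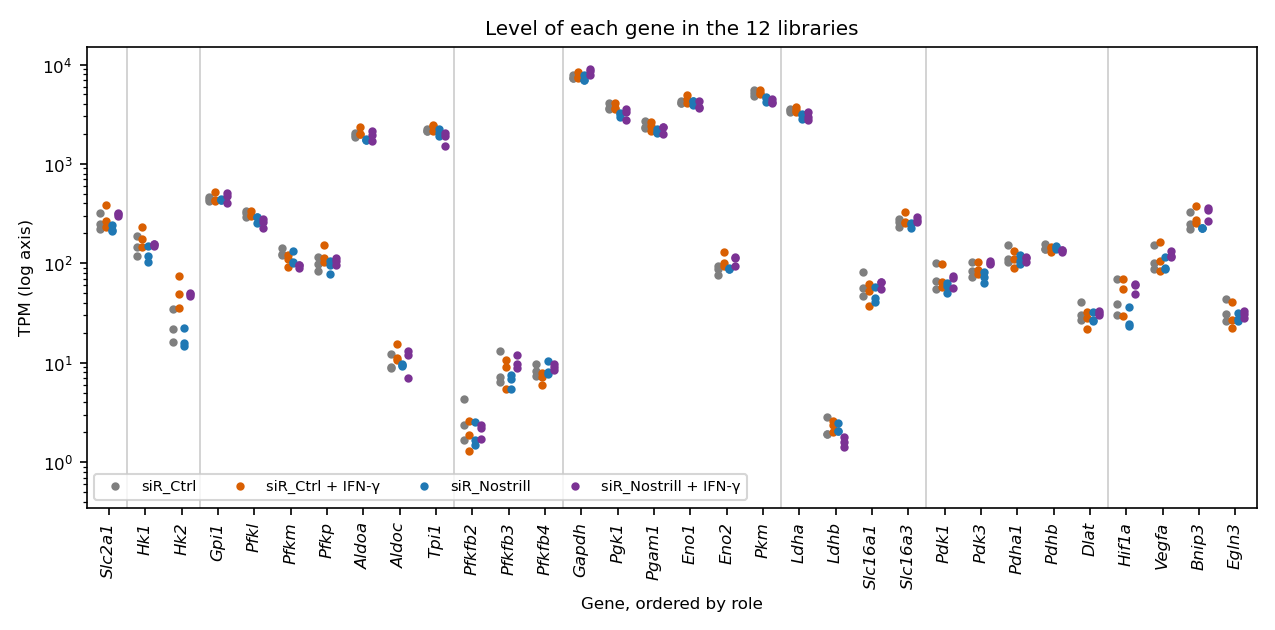
Level of each of the 32 genes in every library, as TPM on a log axis, with genes on the x axis ordered by role, grey lines between roles and 1 point per library coloured by group. Gapdh, Pkm, Eno1, Pgk1, Ldha, Pgam1, Tpi1 and Aldoa lie above all others in each group, and Ldhb and Pfkfb2 lie lowest.

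IFN-γ was first compared with no IFN-γ over both siRNAs, which asks what the cytokine did to these genes whichever siRNA was present. Hk2 rose most, Hif1a, Slc2a1, Hk1 and Pdk3 rose by less, and Pfkm fell. By the quasi-likelihood test of edgeR, with p-values adjusted over all genes (Benjamini-Hochberg), 5 of the 32 genes were higher and 1 was lower at an adjusted p under 0.05, where 9.21% of all 11900 genes tested were called in either direction (6.81% higher and 2.40% lower). The median log2 fold change was 0.05 over the 32 genes and -0.02 over all genes. By role, both hexokinases rose, the glucose transporter rose, 1 of 7 upper glycolysis genes fell, none of the 6 lower glycolysis genes and none of the 4 lactate genes was called, 1 of 5 pyruvate dehydrogenase genes rose and 1 of 4 hypoxia-linked genes rose. At an unadjusted p under 0.05, where 19.9% of all genes stood, 1 of the lower glycolysis genes and 0 of the lactate genes were found, and DESeq2, which called 8 of the 32 genes and 11.1% of all genes, added Eno2 and Bnip3 to the 6. In the same comparison the fibroblast marker Col3a1 was called lower (-0.41 ± 0.11, adjusted p = 0.0344). With the length trend removed Col3a1 (-0.45 ± 0.05) and Pdgfra (-0.37 ± 0.06) were lower over both siRNAs and within each, and Col1a2 was lower in siR_Nostrill cells. The part of these markers in the results was not tested. This averaged comparison uses the same libraries as the comparisons within each siRNA that follow, and is not independent of them.

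Hk2, the inducible hexokinase that traps glucose as glucose 6-phosphate, responded most. In CPM, read counts scaled for library size (TMM), which compare a gene between libraries and not between genes, it was at 98.9, 60.6 and 76.5 in siR_Ctrl cells and at 178, 153 and 242 in siR_Ctrl + IFN-γ cells. With siR_Nostrill it was at 56.2, 63.5 and 74.0, and at 161, 171 and 168 after IFN-γ. Every IFN-γ library lay above every library without IFN-γ. The log2 fold change was 1.32 ± 0.14 (SE) over both siRNAs (adjusted p = 4.2e-05, edgeR), 1.28 ± 0.19 in siR_Ctrl cells (adjusted p = 0.00146) and 1.37 ± 0.19 in siR_Nostrill cells (adjusted p = 0.000894), and Hk2 was called whichever of the 12 libraries was left out. Hk1, the constitutive hexokinase, was at 378, 323 and 361 CPM in siR_Ctrl cells and at 449, 457 and 533 CPM with IFN-γ. With siR_Nostrill it was at 286, 345 and 359 CPM, against 361, 375 and 380 CPM with IFN-γ. Neither pair of groups overlapped, but in siR_Nostrill cells the closest libraries, at 359 and 361 CPM, were nearly equal. The log2 fold change of Hk1 was 0.44 ± 0.11 in siR_Ctrl cells (adjusted p = 0.0346, edgeR), 0.17 ± 0.11 in siR_Nostrill cells, where it did not pass (adjusted p = 0.347), and 0.30 ± 0.08 over both siRNAs (adjusted p = 0.0239). Its call in siR_Ctrl cells was lost when siR_Ctrl replicate 2 or 3, replicate 1 or 3 of siR_Ctrl + IFN-γ, siR_Nostrill replicate 2 or any 1 of the siR_Nostrill + IFN-γ replicates was left out, with values between 0.36 and 0.49 over all 12 fits. Over both siRNAs it was lost without siR_Ctrl replicate 2 or 3, replicate 3 of siR_Ctrl + IFN-γ, siR_Nostrill replicate 1 or siR_Nostrill + IFN-γ replicate 2 or 3, with values between 0.26 and 0.34.

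Slc2a1, the glucose transporter GLUT1, was at 402, 387 and 394 CPM in siR_Ctrl cells and at 441, 482 and 559 CPM with IFN-γ. With siR_Nostrill it was at 385, 404 and 373 CPM, and at 445, 480 and 530 CPM with IFN-γ. All 6 libraries with IFN-γ lay above all 6 without. The log2 fold change was 0.33 ± 0.07 over both siRNAs (adjusted p = 0.0111, edgeR), and within each siRNA, at 0.33 ± 0.10 and 0.32 ± 0.10, it did not pass (adjusted p = 0.103 and 0.0807). Within each siRNA it did pass with DESeq2 (0.32 and 0.32) and with the length trend removed (0.32 and 0.36). Its call over both siRNAs held whichever library was left out.

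**Figure D2:**
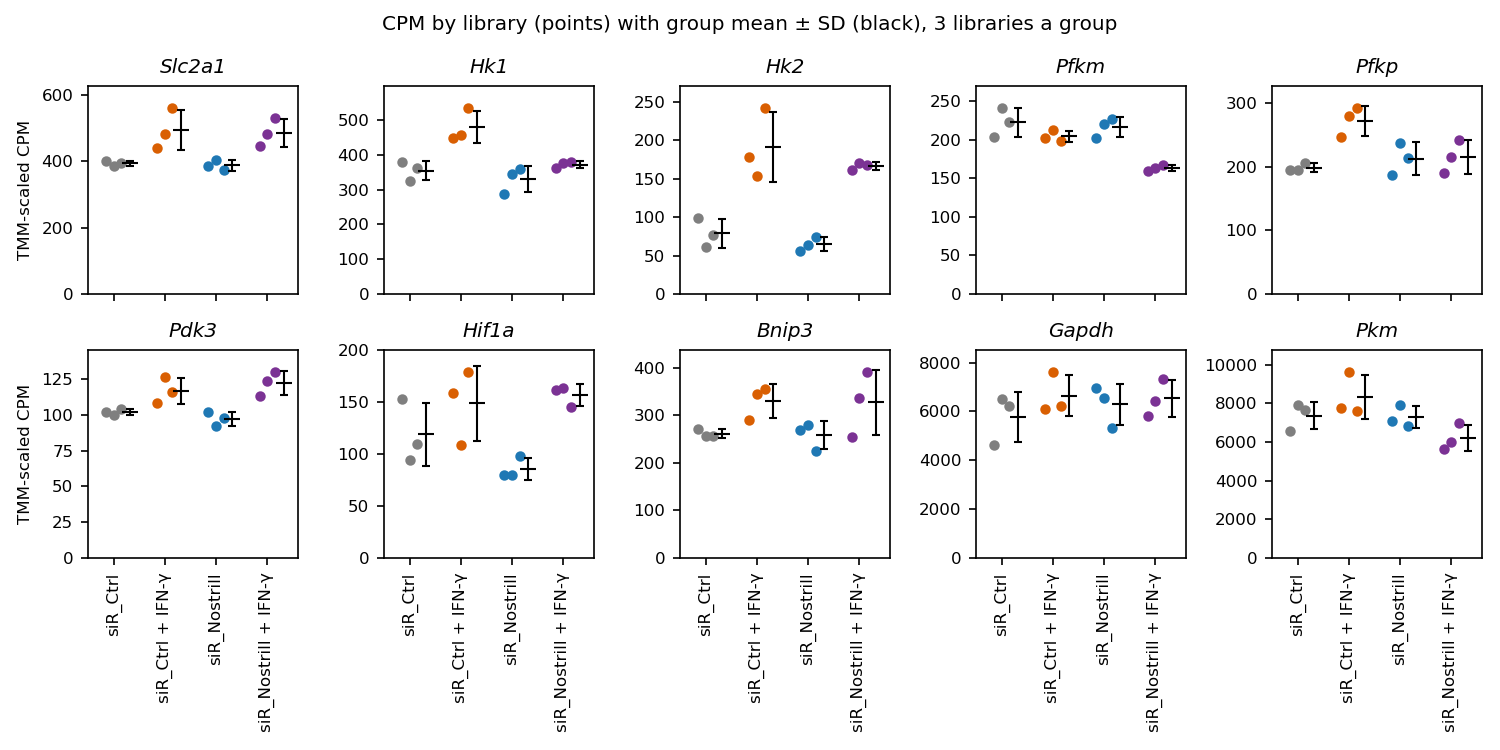
TMM-scaled CPM of 10 of the genes on axes that start at 0, by group on the x axis, with 1 coloured point per library and the group mean ± SD (n = 3) in black. Hk2 and Slc2a1 separate the IFN-γ libraries from the others with either siRNA, whereas the Gapdh points, between 4617 and 7603 CPM, overlap between all 4 groups.

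The phosphofructokinase genes, whose products catalyse the committed step of glycolysis, went in different directions with IFN-γ. Pfkm, the muscle-type subunit, was at 204, 241 and 223 CPM in siR_Ctrl cells and 203, 213 and 199 CPM with IFN-γ. In siR_Nostrill cells it was at 202, 220 and 227 CPM, and at 160, 163 and 168 CPM with IFN-γ, so that the groups overlapped in siR_Ctrl cells and not in siR_Nostrill cells. Pfkm fell by 0.26 on the log2 scale over both siRNAs (SE 0.06, adjusted p = 0.011, edgeR) and by 0.40 in siR_Nostrill cells (SE 0.08, adjusted p = 0.00919), and both calls held whichever library was left out. In siR_Ctrl cells its log2 fold change was -0.12 ± 0.08 (adjusted p = 0.569), and the difference between the siRNAs, at -0.28 ± 0.11, did not pass the interaction test (adjusted p = 0.430). Pfkp, the platelet-type subunit, was at 195, 194 and 206 CPM in siR_Ctrl cells and 246, 279 and 292 CPM with IFN-γ, with no overlap. In siR_Nostrill cells the values overlapped, at 186, 238 and 214 CPM without and 189, 214 and 242 CPM with IFN-γ. Its log2 fold change was 0.46 ± 0.11 in siR_Ctrl cells (adjusted p = 0.0396, edgeR) and 0.24 ± 0.08 over both siRNAs (adjusted p = 0.105), and the interaction was -0.44 ± 0.16 (adjusted p = 0.430). The call in siR_Ctrl cells was lost without any 1 of the siR_Ctrl replicates, siR_Ctrl + IFN-γ replicate 2 or 3, siR_Nostrill replicate 3 or siR_Nostrill + IFN-γ replicate 2, with values between 0.40 and 0.52. Pfkl, the liver-type subunit and the most abundant of the 3, had a log2 fold change of -0.07 ± 0.10 over both siRNAs (adjusted p = 0.81, edgeR). This average held opposite changes: mean Pfkl went from 720.2 to 800.5 CPM with IFN-γ in siR_Ctrl cells and from 727.5 to 594.1 CPM in siR_Nostrill cells.

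Pdk3, a kinase that switches off pyruvate dehydrogenase, was at 102, 100.1 and 104 CPM in siR_Ctrl cells and 108, 126 and 116 CPM with IFN-γ. In siR_Nostrill cells it was at 102, 92.3 and 97.7 CPM, and at 114, 124 and 130 CPM with IFN-γ. The 6 IFN-γ libraries lay above the other 6. The log2 fold change was 0.26 ± 0.06 over both siRNAs (adjusted p = 0.0125, edgeR), called whichever library was left out, and 0.33 ± 0.08 in siR_Nostrill cells (adjusted p = 0.0332). That second call was lost without siR_Ctrl replicate 3, any 1 of the siR_Nostrill replicates or siR_Nostrill + IFN-γ replicate 2 or 3, with values between 0.28 and 0.38. Pdk1, the kinase that HIF-1 is known to raise, had a log2 fold change of 0.11 ± 0.11 (adjusted p = 0.70). The complex itself was close to level, with values over both siRNAs of -0.06 ± 0.05 for Pdha1, -0.10 ± 0.09 for Pdhb and -0.05 ± 0.05 for Dlat, none of them called.

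Hif1a, which encodes the oxygen-regulated subunit of HIF-1, was at 153, 94.5 and 109 CPM in siR_Ctrl cells and 159, 108 and 179 CPM with IFN-γ, with overlap. In siR_Nostrill cells it was at 79.9, 79.6 and 98.0 CPM, and at 162, 163 and 145 CPM with IFN-γ, with none. The log2 fold change was 0.60 ± 0.14 over both siRNAs (adjusted p = 0.019, edgeR), 0.87 ± 0.20 in siR_Nostrill cells (adjusted p = 0.0225) and 0.32 ± 0.20 in siR_Ctrl cells (adjusted p = 0.531), and the interaction of 0.55 ± 0.28 did not pass (adjusted p = 0.430). The call in siR_Nostrill cells was lost without siR_Nostrill replicate 1 or 2 or any 1 of the siR_Nostrill + IFN-γ replicates (0.81 to 0.97 over all fits). Over both siRNAs it was lost without siR_Ctrl replicate 3, replicate 1 of siR_Ctrl + IFN-γ, siR_Nostrill replicate 1 or 2 or siR_Nostrill + IFN-γ replicate 2 (0.52 to 0.71). Among siR_Ctrl libraries Hif1a was highest in replicate 1, whose deviations were correlated with transcript length at 0.782, against -0.743 and -0.563 in replicates 2 and 3, and the effective length of Hif1a was 4154 nucleotides, against a median of 2671 over all genes. With the length trend removed Hif1a was called in siR_Ctrl cells, in siR_Nostrill cells and over both siRNAs, the last at 0.58 ± 0.08. The other hypoxia-linked genes were not called by edgeR: over both siRNAs the log2 fold change was 0.34 ± 0.10 for Bnip3, a mitophagy receptor (adjusted p = 0.0688), 0.18 ± 0.10 for Vegfa, an angiogenic growth factor (adjusted p = 0.386), and -0.03 ± 0.09 for Egln3, a prolyl hydroxylase that marks HIF for degradation (adjusted p = 0.928). Bnip3 was called over both siRNAs by DESeq2 (0.33 ± 0.11) and with the length trend removed (0.37 ± 0.10), and in siR_Nostrill cells with the length trend removed.

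None of the enzymes from aldolase to lactate dehydrogenase was called by edgeR with IFN-γ over both siRNAs. Ldha was at 2595, 3727 and 3157 CPM in siR_Ctrl cells and 3222, 4232 and 3250 CPM with IFN-γ. In siR_Nostrill cells it was at 3030, 3508 and 2875 CPM, against 2419, 2665 and 3252 CPM with IFN-γ. The groups overlapped in both cases, and over both siRNAs the log2 fold change of Ldha was 0.00 ± 0.12, which edgeR did not call. The same average was near 0 for Eno1 (0.00 ± 0.13), Pgk1 (0.01 ± 0.11), Pgam1 (0.03 ± 0.09), Pkm (-0.03 ± 0.10) and Tpi1 (-0.05 ± 0.15). It held values of opposite sign, since the log2 fold change was above 0 in siR_Ctrl cells and below 0 in siR_Nostrill cells for Ldha and for each of these 5 genes, for example 0.26 ± 0.18 and -0.26 ± 0.18 for Eno1, none of them called within either siRNA. Across all genes, log2 fold changes were correlated with transcript length at a Spearman rho of -0.421 in siR_Ctrl cells and 0.48 in siR_Nostrill cells. With the length trend removed, all 6 lower glycolysis genes were above 0 in siR_Ctrl cells. In siR_Nostrill cells 3 of the 6 were then above 0 and 3 below, against 2 and 4 before. The opposite signs therefore did not hold for every gene. Over both siRNAs Eno2, the other enolase, was at 0.30 ± 0.10 (adjusted p = 0.0883), and DESeq2 called it (0.30 ± 0.11). Aldoa was at 0.12 ± 0.11 (adjusted p = 0.681) and Aldoc, another aldolase, at 0.24 ± 0.15 (adjusted p = 0.456). Gapdh was at 0.13 ± 0.12 (adjusted p = 0.652), and at 0.06 without siR_Ctrl replicate 1, 0.08 without replicate 2 of siR_Ctrl + IFN-γ, 0.07 without siR_Nostrill replicate 3 and 0.08 without siR_Nostrill + IFN-γ replicate 3. Slc16a3, the lactate exporter MCT4, was at 0.15 ± 0.09 and Slc16a1, the transporter MCT1, at 0.05 ± 0.07, and neither was called. Mean Slc16a1 went from 164.5 to 152.1 CPM with IFN-γ in siR_Ctrl cells and from 147.3 to 170.8 CPM in siR_Nostrill cells. Of the fructose 2,6-bisphosphate enzymes, Pfkfb3, which raises that activator of phosphofructokinase, was at 0.28 ± 0.12 (adjusted p = 0.216). With the length trend removed, 11 of the 32 genes were called over both siRNAs, where 20.0% of all genes were: the 6 above and Gapdh, Eno2, Pfkp, Pfkfb3 and Bnip3, all 5 higher, with Gapdh at 0.17 ± 0.05.

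**Figure D3:**
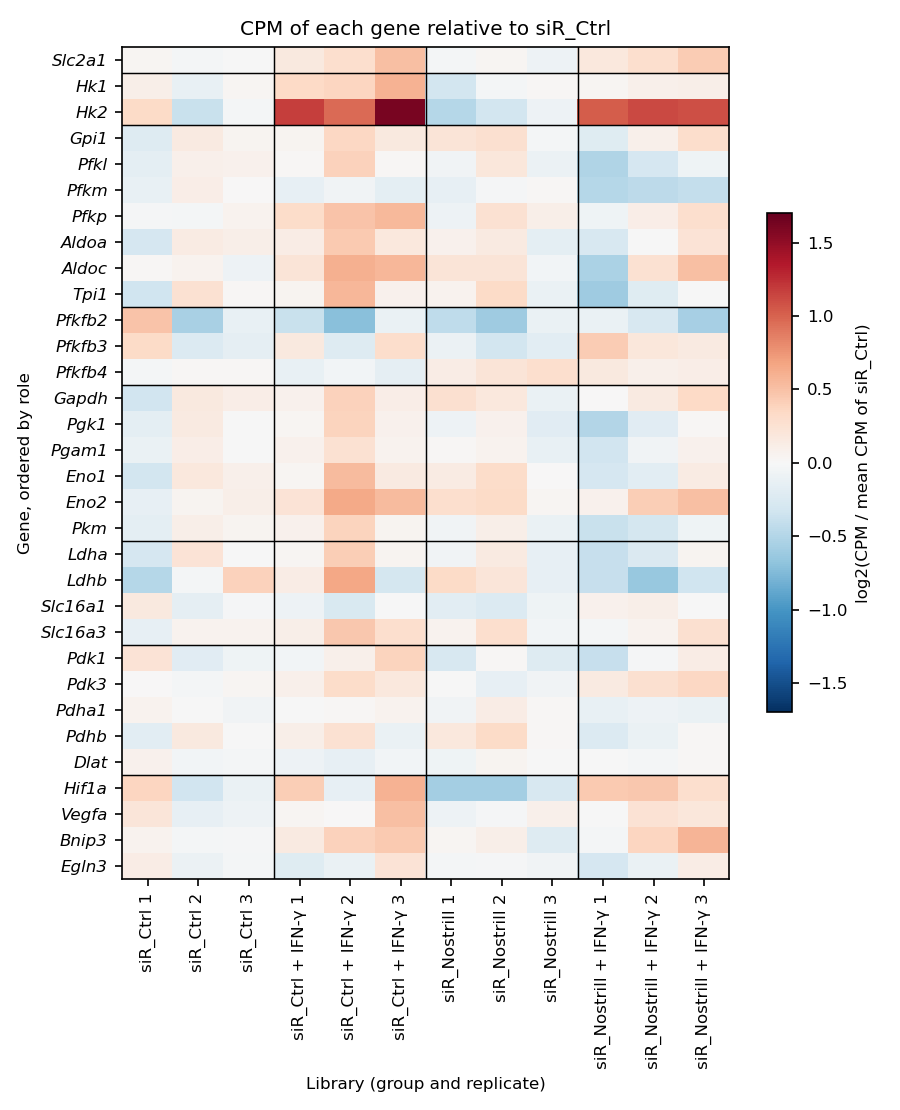
CPM of the 32 genes (y axis, ordered by role, black lines between roles) in the 12 libraries (x axis, black lines between groups), coloured by log2 of the ratio to the siR_Ctrl mean, blue for lower and red for higher values. The Hk2 row is the darkest red in both IFN-γ groups, and the rows of Pgk1, Pgam1, Eno1, Pkm and Ldha are paler, with blue in siR_Nostrill + IFN-γ replicate 1.

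Within siR_Ctrl cells alone, 3 of the 32 genes were higher with IFN-γ (Hk1, Hk2 and Pfkp) and 0 were lower, where 5.45% of all genes were called. In this comparison 26 of the 32 log2 fold changes were above 0, with a median of 0.19, against 48.4% and -0.01 over all genes. The 3 IFN-γ libraries did not overlap the 3 controls for 9 genes that were higher and 2 that were lower, and over all genes the shares were 9.57% and 8.18%. Within siR_Nostrill cells 3 were higher (Hk2, Hif1a and Pdk3) and 1 was lower (Pfkm), where 6.78% of all genes were called. There 16 of the 32 values were above 0, against 49.9% of all genes, with a median of 0.00 over the 32 genes and over all genes. Groups did not overlap for 7 genes that were higher and 4 that were lower, against 18.5% and 16.9% of all genes. With the length trend removed 6 were called in siR_Ctrl cells, Eno2, Hif1a and Slc2a1 besides the 3 above, all higher, where 11.1% of all genes were. In siR_Nostrill cells 8 were, with Bnip3, Gapdh, Pfkfb3 and Slc2a1 higher besides the 4 above, where 19.0% of all genes were. Leaving out a library changed the counts of edgeR. The 3 in siR_Ctrl cells became 1 without siR_Ctrl replicate 2 or 3, replicate 3 of siR_Ctrl + IFN-γ or siR_Nostrill + IFN-γ replicate 2, and the 4 in siR_Nostrill cells became 2 without siR_Nostrill replicate 1 or 2 or siR_Nostrill + IFN-γ replicate 2 or 3. The test of the difference between the siRNAs, the interaction, called 0 of the 32 genes and 0% of all genes, with 3 of the 32 (Pfkp, Pfkm and Slc16a1) at an unadjusted p under 0.05, where 10.7% of all genes were, and 0 called by DESeq2, which had 7 of the 32 and 1485 of the 15002 genes at that level. Those 3 became 0 without siR_Nostrill replicate 2 or siR_Nostrill + IFN-γ replicate 1, 1 without siR_Ctrl replicate 1, replicate 2 of siR_Ctrl + IFN-γ or siR_Nostrill + IFN-γ replicate 2, 5 without siR_Nostrill replicate 3, and 8 or 9 without replicate 3 of siR_Ctrl + IFN-γ, siR_Ctrl replicate 2 or siR_Nostrill + IFN-γ replicate 3. The 2 comparisons share no library, but siR_Ctrl cells are also the controls of the siR_Nostrill comparison.

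The mix of isoenzymes shifted with IFN-γ. On the TPM scale, Hk2 made up 15.4%, 11.9% and 13.0% of the summed Hk1 and Hk2 in siR_Ctrl cells and 22.0%, 19.7% and 24.1% with IFN-γ. In siR_Nostrill cells it made up 12.4%, 11.7% and 13.0%, and 23.8%, 24.3% and 24.0% with IFN-γ. All 6 libraries with IFN-γ were above the other 6, and Hk1 remained the major form in each. The mean difference was 10.1 percentage points (exact two-sided permutation test within each siRNA, 400 arrangements, p = 0.005, the smallest they can give, adjusted p = 0.035 over 14 tests). The Pfkp share of the 3 phosphofructokinase genes rose by 4.10 points (the same exact permutation test, p = 0.005, adjusted p = 0.035), from between 16.9% and 20.0% without IFN-γ to between 20.6% and 25.2% with it. In siR_Nostrill cells mean Pfkp itself was at 212.5 CPM without and 215.2 CPM with IFN-γ. There mean Pfkl went from 727.5 to 594.1 CPM and mean Pfkm from 216.6 to 163.6 CPM. The Pfkm share, which was not tested, was 18.3% to 22.9% with IFN-γ and 21.2% to 24.9% without. Eno2, the neuron-type enolase, rose by 0.473 points as a share of Eno1 and Eno2 (exact permutation p = 0.01, adjusted p = 0.0467), and its share stayed between 1.83% and 3.01% in all 12 libraries. The shares of Aldoc, Ldhb, Slc16a3 and Pdk3 and all 7 shares compared between siR_Nostrill and siR_Ctrl did not pass. All 3 calls were lost without siR_Ctrl replicate 2 or 3 or replicate 3 of siR_Ctrl + IFN-γ, and that of Eno2 also without replicate 1 of siR_Ctrl + IFN-γ or siR_Nostrill + IFN-γ replicate 2. A fit with a library left out has fewer than 400 arrangements, which limits how small its p can be. These losses therefore do not show that a call rests on those libraries. Over all 12 fits with a library left out the differences were 9.55 to 10.6, 3.43 to 4.58 and 0.40 to 0.52 points.

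**Figure D4:**
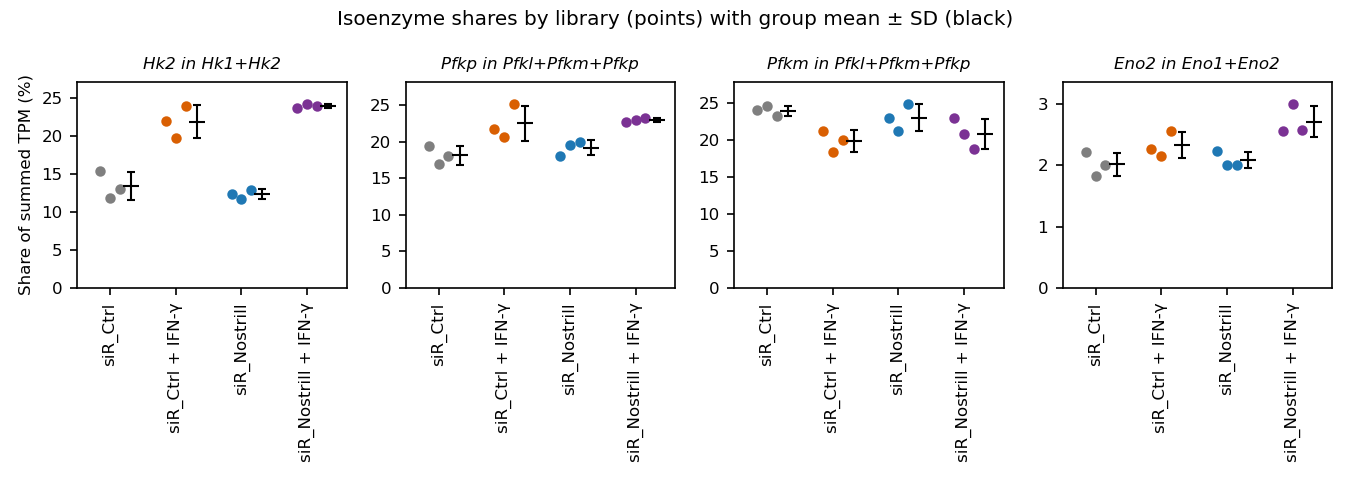
Share of summed TPM, in percent on axes that start at 0, of Hk2, Pfkp, Pfkm and Eno2 among the genes named above each panel, by group, with 1 point per library and the group mean ± SD (n = 3) in black. The Hk2 share lies between 11.7% and 15.4% without IFN-γ and between 19.7% and 24.3% with it.

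The second question was whether siR_Nostrill moved these genes. Without IFN-γ it called 0 of the 32 genes by edgeR's test, where 0.218% of all genes were called, and 0 by DESeq2, where 2.56% were. At an unadjusted p under 0.05 in edgeR stood 2 of the 32 (Pfkfb4 and Hif1a) and 13.8% of all genes. Those 2 became 0 without siR_Ctrl replicate 1, 4 without siR_Ctrl replicate 2 and 1 without any 1 of the siR_Nostrill replicates. Pfkfb4, an enzyme of fructose 2,6-bisphosphate turnover, was at 16.7, 17.2 and 17.3 CPM in siR_Ctrl cells and 18.6, 19.9 and 20.9 CPM in siR_Nostrill cells. It was the only gene of the 32 whose libraries did not overlap in this comparison, while over all genes 8.70% did not overlap upward and 9.27% downward. Its log2 fold change was 0.22 ± 0.08 (adjusted p = 0.307, edgeR). Hif1a was at -0.47 ± 0.20 (adjusted p = 0.351), with overlapping groups, and Slc16a1 at -0.16 ± 0.10 (adjusted p = 0.414). Without siR_Ctrl replicate 1 these values were -0.25 and -0.07, and with the length trend removed Slc16a1 was at -0.01.

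With IFN-γ present, most of these genes had lower values in siR_Nostrill cells, but edgeR's test called 0 of the 32 genes, where 0.429% of all genes were called. The log2 fold change was above 0 for 7 of the 32 genes, against 49.4% of all genes, and below 0 for 25, including all 7 upper glycolysis genes and all 6 lower glycolysis genes, with a median of -0.19 over the 32 genes and 0.00 over all genes. An unadjusted p under 0.05 was found for 9 of the 32 genes and for 14.5% of all genes. Those 9 became 4 without siR_Nostrill + IFN-γ replicate 1 and 5 without replicate 2 of siR_Ctrl + IFN-γ. They became 13 without siR_Nostrill + IFN-γ replicate 3. DESeq2 called 3 (Pfkm, Hk1 and Pkm, all lower) and 5.46% of all genes. The libraries of the 2 groups did not overlap for 9 genes that were lower and 2 that were higher, against 10.4% and 11.1% of all genes. Pfkm was at 203, 213 and 199 CPM with siR_Ctrl + IFN-γ and 160, 163 and 168 CPM with siR_Nostrill + IFN-γ, a log2 fold change of -0.32 ± 0.08 (adjusted p = 0.0944, edgeR). Hk1, at 449, 457 and 533 CPM against 361, 375 and 380 CPM, gave -0.37 ± 0.11 (adjusted p = 0.13). Pkm was at 7740, 9602 and 7598 CPM against 5655, 5997 and 6977 CPM, which gave -0.42 ± 0.14 (adjusted p = 0.178). For all 3 every siR_Nostrill library lay below every siR_Ctrl library. Tpi1 stood at -0.50 ± 0.21, Pgk1 at -0.37 ± 0.15, Ldha at -0.36 ± 0.17 and Eno1 at -0.35 ± 0.18, none called, while Gapdh was at -0.02 ± 0.17, Slc2a1 at -0.03 ± 0.10 and Hk2 at -0.20 ± 0.19.

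Removing the length trend changed these calls. The number of genes above 0 went from 7 to 9, Gapdh (0.06 ± 0.07) and Bnip3 (0.03 ± 0.14) having changed sign, neither of them called. The fit called 8 of the 32 genes in siR_Nostrill with IFN-γ, all lower, where 12.9% of all genes were called and 6.74% were lower. The 8 were Hk1 (-0.40 ± 0.07), Pfkm (-0.33 ± 0.07), Pfkp (-0.36 ± 0.10), Tpi1 (-0.42 ± 0.11), Pgk1 (-0.33 ± 0.09), Eno1 (-0.29 ± 0.09), Pkm (-0.41 ± 0.08) and Ldha (-0.29 ± 0.08). Without IFN-γ it called 0 of the 32 genes, and 3.39% of all genes, with 4 of the 32 and 2290 of the 11900 genes at an unadjusted p under 0.05. It called 0 genes in the interaction, with 9 of the 32 and 2263 of the 11900 at an unadjusted p under 0.05, so a difference of the siR_Nostrill effect between cells with and without IFN-γ was not shown. When a replicate block was added as well, the interaction called Hk1 and Pfkp, both lower, and 2.08% of all genes. Averaged over both IFN-γ states, siR_Nostrill called 0 of the 32 genes by edgeR, where 2.16% of all genes were called, with 4 of the 32 and 16.5% of all genes at an unadjusted p under 0.05. DESeq2 called Pfkm (lower) and Pfkfb4 (higher) there, and 6.65% of all genes. With the length trend removed 7 were called, where 13.6% of all genes were: Hk1, Pfkm, Pgk1, Pgam1, Pkm and Ldha were lower and Pfkfb4 was higher.

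**Figure D5:**
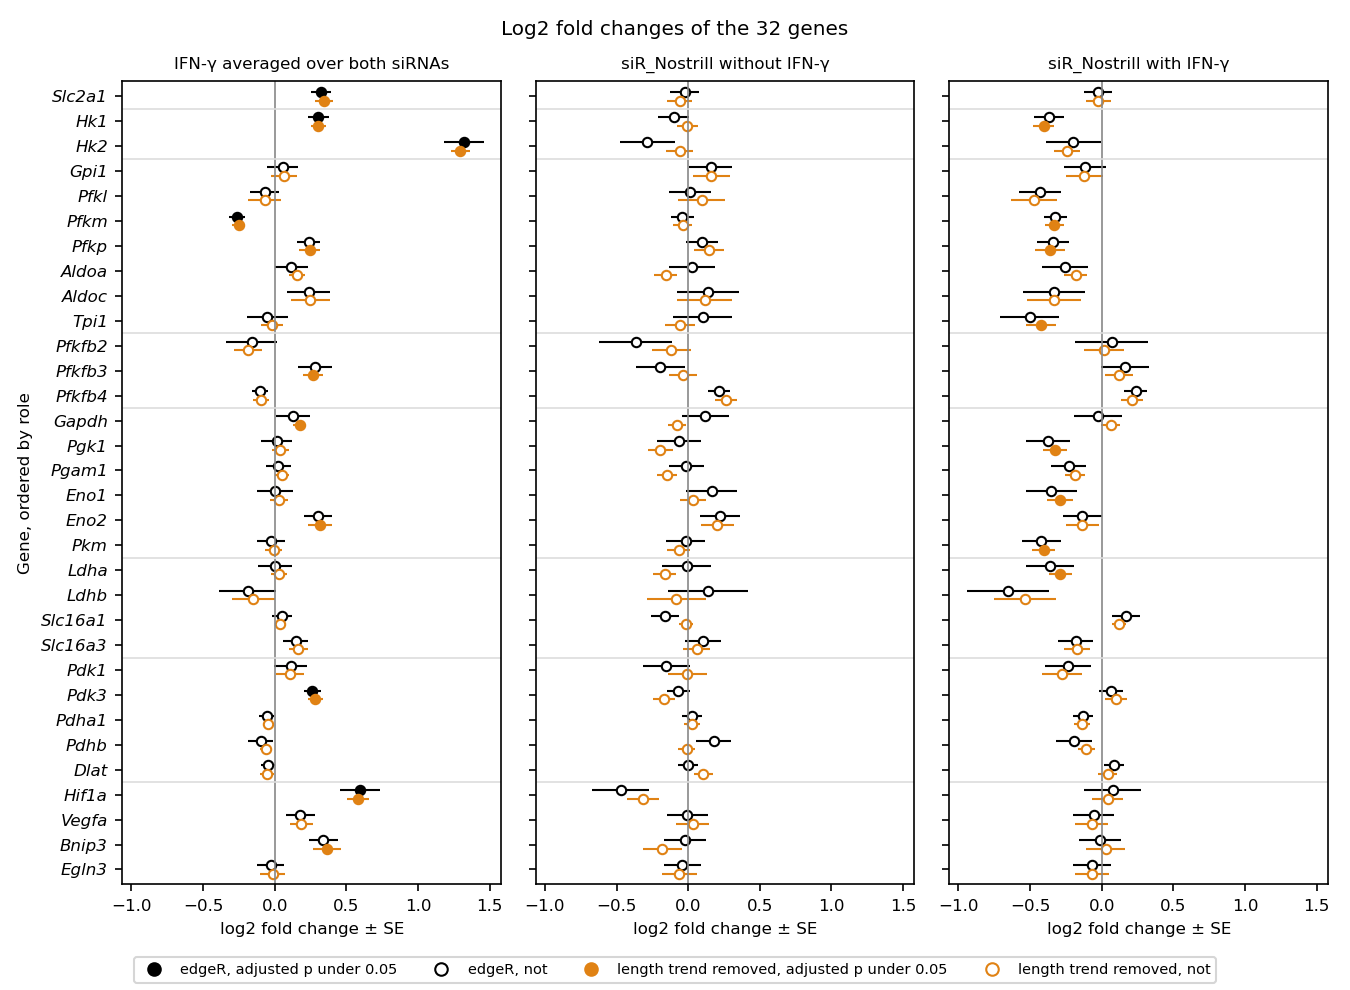
Log2 fold change ± SE (x axis) of the 32 genes (y axis, ordered by role) in 3 comparisons, from edgeR (black) and with the length trend removed (orange), with filled points for an adjusted p under 0.05. Hk2 lies furthest to the right with IFN-γ, and with siR_Nostrill in the presence of IFN-γ the upper and lower glycolysis genes lie left of 0, apart from Gapdh with the length trend removed, and 8 genes are filled, all in orange.

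Other genes of the same pathways give the surroundings. The counts by edgeR over both siRNAs stand against 9.21% of all genes called, 6.81% higher and 2.40% lower. Of 24 other glycolytic isoenzymes and glucose transporters, 18 were listed and 11 tested, and over both siRNAs IFN-γ raised 1 and lowered 0. This was Slc2a3, the glucose transporter GLUT3, at 0.38 ± 0.10 (adjusted p = 0.0372, edgeR). None of 20 citrate cycle genes and none of 11 pentose phosphate pathway genes was called, with 2 and 1 at an unadjusted p under 0.05, where 19.9% of all genes were. Of 11 genes for pyruvate entry into mitochondria, 0 were higher and 1 was lower, namely Pdp1, a phosphatase that reactivates pyruvate dehydrogenase (-0.25 ± 0.07, adjusted p = 0.0487). Of 9 HIF regulators tested, 2 were higher and 0 lower. They were Vhl (0.51 ± 0.07, adjusted p = 0.000426) and Cul2 (0.34 ± 0.05, adjusted p = 0.00117), which both belong to the ubiquitin ligase that removes HIF, and both were called within each siRNA as well. Of 25 other hypoxia-linked genes tested, 3 were higher, namely Ndrg1 (0.50 ± 0.09, adjusted p = 0.00385), Adm, which encodes adrenomedullin (0.56 ± 0.12, adjusted p = 0.0103), and Hmox1, haem oxygenase 1 (0.29 ± 0.08, adjusted p = 0.0374), and 1 was lower, Angptl4 (-0.53 ± 0.12, adjusted p = 0.0168). Within siR_Ctrl cells Ndrg1 (0.62 ± 0.13), Adm (0.68 ± 0.17) and Angptl4 (-0.80 ± 0.17) were called by edgeR, where 5.45% of all genes were. Within siR_Nostrill cells 0 of the 25 were called by edgeR, where 6.78% of all genes were, and 0 by DESeq2, where 10.5% were. An unadjusted p under 0.05 in edgeR was found for 4 of the 25 and for 2606 of the 11900 genes. With the length trend removed Ndrg1, Adm, Hmox1, Ier3 and Mif were higher in siR_Nostrill cells, where 19.0% of all genes were called. The interaction called 0 of the 25 by edgeR and by DESeq2, with 3 of the 25 and 10.7% of all genes at an unadjusted p under 0.05 in edgeR. The median of these 25 was 0.13, against -0.02 over all genes. For IFN-γ over both siRNAs, removing the length trend added 4 citrate cycle genes, Sdhc (higher) and Idh3a, Sucla2 and Suclg1 (lower), as well as Eno3 (lower) and Arnt, Ero1l, Ier3 and Mif (higher), where 20.0% of all genes were called. DESeq2 added Idh3a, Sdha and Galm, all lower, and called 11.1% of all genes. siR_Nostrill averaged over both IFN-γ states called 0 genes in each of these lists by edgeR's test, with 3, 2, 2, 5, 1 and 4 genes, in the order of the lists above, and 16.5% of all genes at an unadjusted p under 0.05. After removal of the length trend 9 genes of these lists and 13.6% of all genes were called: Taldo1, Cs and Sdhb were higher and Bpgm, Galm, Dld, Pdhx, Pdk4 and Sdha were lower. DESeq2 called Taldo1 (higher) and Sdha (lower), and 6.65% of all genes.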

How the data were processed

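For each of the 12 libraries the authors deposited 3 values per gene: an estimated count, not normalized, an FPKM and a TPM value, the last 2 scaled for transcript length. Upstream the study used SOAPnuke, HISAT2 and Bowtie2 (build GRCm38.p6) and GATK. The counting tool is not named in the sources used. Counts were whole for 90.6% to 91.6% of genes and were rounded. Groups came from the sample labels, and the study describes biological triplicates. All genes were tested with edgeR 4.0.16 in R 4.3.3 (quasi-likelihood test, TMM, filterByExpr, 1 fit of all 12 libraries, Benjamini-Hochberg adjustment over 11900 genes, threshold 0.05). CPM were TMM-scaled. The length trend was removed per library with a lowess of span 0.3 on log length, used as an offset. Alternatives were DESeq2 1.42.0, its size factors, other filters, only the groups compared, a replicate block, limma 3.58.1 on log2 FPKM with a pseudocount of 1 or 0.1, and each library left out. Isoenzyme shares were compared with exact permutation tests on TPM. Named genes were, per comparison, every called gene and the 3 genes of lowest p, with Gapdh. The genes and lists were chosen with earlier results of these data known. The scripts were tested on simulated data.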

Additional observations from a re-analysis of the deposited data

How the results depend on the processing

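None of the 32 genes, in a comparison where edgeR called it, and none of the called shares changed direction in any alternative run. Calls made only in an alternative, and genes outside the 32, were not followed through every alternative. For IFN-γ in siR_Ctrl cells, 3 of the 32 genes were called by edgeR, 5 by DESeq2 (6.33% of all genes), 1 with only the groups compared (2.91%), 1 by each of the 3 limma fits on log2 FPKM (3.73% to 4.73%), 6 with the length trend removed, 7 with the length trend removed and a replicate block (12.1% of all genes), and 1 to 3 with a library left out (4.07% to 4.90%). In siR_Nostrill cells 4 were called, 6 with only the groups compared (17.0%), 8 with the length trend removed, 8 when the replicate block was added to that (22.4% of all genes), and 2 to 5 with a library left out (4.08% to 9.47%). Over both siRNAs the 6 calls became 11 with the length trend removed, 13 with the replicate block as well (21.9% of all genes), and 4 to 9 with a library left out (7.35% to 11.2%). For siR_Nostrill with IFN-γ the 0 calls became 3 with DESeq2, 8 with the length trend removed and 10 with the replicate block as well (15.9% of all genes). For siR_Nostrill over both IFN-γ states the 0 calls became 2 with DESeq2, 1 with a mean of at least 5 CPM (3.06% of all genes), 7 with the length trend removed and 9 with the replicate block as well (15.7% of all genes). The interaction had 2 calls, Hk1 and Pfkp, both lower, only with the length trend removed and the replicate block. Why the counts moved was not tested.

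Whether replicate numbers pair the samples was not settled: of 18 pairs of same-numbered libraries, 8 had deviations that correlated above 0.1, over a range of -0.495 to 0.725. Pairs from different groups with different numbers ranged from -0.812 to 0.769. These deviations still held the length trend of each library, so the check cannot show that pairing is absent. With the trend removed, adding the replicate block raised the calls over all genes in every comparison, for example from 1538 to 1895 for siR_Nostrill with IFN-γ and from 0 to 248 for the interaction. With the replicate block alone, 3 and 4 genes were called for IFN-γ in siR_Ctrl and in siR_Nostrill cells, 7 for IFN-γ over both siRNAs and 0 for siR_Nostrill and for the interaction, against 5.41%, 7.92%, 9.31%, at most 1.54% and 0% of all genes. With the replicate block the 3 called isoenzyme shares were each at p = 0.0312 by the exact sign-flip permutation test, the smallest p that block can give, and 0 passed the adjustment, which says nothing about their stability. With a library left out, which also leaves fewer arrangements for the permutation test, 0 to 3 passed. Of 282 values of single genes and shares under the other alternatives, 242 kept their side of the threshold, 21 passed it newly and 19 lost it.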
